A study of Drosophila melanogaster with 16 samples.

Results

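Of 8 wild type (WT) flies profiled one at a time, 2 carried almost no testis transcripts. They were chosen by their own values: a WT fly was counted as lacking testis transcripts where the median log2 level of betaTub85D, Mst87F and dj was under 4. CH-WT replicate 7 had a median of 2.38 and normoxic WT replicate 5 a median of 2.21, and the next fly above the limit, CH-WT replicate 3, stood at 12.60. These 2 of 8 WT flies, out of 16 flies in the whole series, were set against the other 6 to describe which transcripts of a whole fly went missing with those of the testis and which others differed. Because the same arrays chose the 2 flies, their differences are given as descriptions with no p-value.

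The WT flies were, per the study's methods, P-tub-Gal4 driver flies, and they were the study's controls for dystrophin-deficient flies (dmDys). The labels give adults 3 to 5 days old, kept for 2 weeks either in normobaric chronic hypoxia (CH-WT, 4 flies), in a chamber set to the oxygen of a mountain climb, or in room air (normoxic WT, 4 flies). Each array held the RNA of 1 whole fly, amplified and hybridized to the Affymetrix Drosophila Genome 2.0 array, so that loss of a tissue and less RNA per cell of that tissue cannot be told apart. In the labels, the strain of CH-WT replicate 3 is given as dmDys and CH-WT replicate 5 has the identifier of replicate 3, and the titles were followed. The 4 CH-WT and 4 normoxic WT flies each held 1 of the 2 flies without testis transcripts. The sources used here do not state the sex of the flies.

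The Drosophila testis makes sperm from a small pool of stem cells at its tip. Their daughters divide a few times as spermatogonia, grow as spermatocytes, in which a testis-specific transcription programme opens, pass through meiosis, and elongate into spermatids with long tails and tightly packed nuclei. The tTAF and tMAC protein complexes switch on most of the spermatocyte programme. Seminal fluid comes from other, somatic parts of the male tract, the accessory glands and the ejaculatory bulb.

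The 2 flies resembled each other more than they did the other 6, and both carried the transcripts of male somatic glands. The squared correlation between them over all probe sets was 0.926, against 0.545 to 0.661 with the other 6 flies and 0.949 to 0.989 among those 6. The seminal fluid list (28 measured genes) had a median log2 level of 13.46 in CH-WT replicate 7 and 13.40 in normoxic WT replicate 5, within the 12.93 to 13.52 of the other flies. Acp36DE, a sperm-storage protein of seminal fluid, stood at 14.05 and 14.15, against 13.02 to 14.15. Of 23 measured genes of eggs and yolk, 19 were under a log2 level of 4 in both flies, among them the yolk proteins Yp1, Yp2 and Yp3 and the eggshell proteins Cp36 and Cp16. In the same list, 2 genes counted as higher and 1 as lower by the limits given below. Over all probe sets these shares were 21.1% and 11.5%. Values near 2 are the floor of these arrays, where a transcript has no measurable level. The mean 3' minus 5' log2 difference of the control transcripts of Act5C, Gapdh and eIF-4a, a sign of RNA preservation, was 5.45 in CH-WT replicate 7, below the 6.17 to 6.80 of the other CH-WT flies, and 7.44 in normoxic WT replicate 5, above the 6.32 to 6.72 of its group. Its part in the differences between the 2 flies and the other 6 was not tested.

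Across 18907 probe sets, 2180 were lower in both flies than in each of the other 6 with a log2 difference of -1 or less (11.5% of all). Of these, 1359 (7.19%) were lost, meaning under a log2 level of 4 in both flies and at 4 or more in all of the other 6. The remaining 821 (4.34%) were reduced without meeting that limit. Conversely, 3988 probe sets (21.1%) were higher, with both flies above each of the other 6 and a log2 difference of at least 1. The gap to each single fly could be smaller than 1. In 922 of them, all of the other 6 were under a log2 level of 4. With the arrays centred on muscle genes instead, the split of 2180 lower and 3988 higher became 2640 lower and 1171 higher, and with ribosomal protein genes 2404 and 2335, while the lost class stayed at 1385 and 1371. The differences were fitted with hypoxia as a covariate, and standard errors below come from that fit over the 8 flies.

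**Figure D1:**
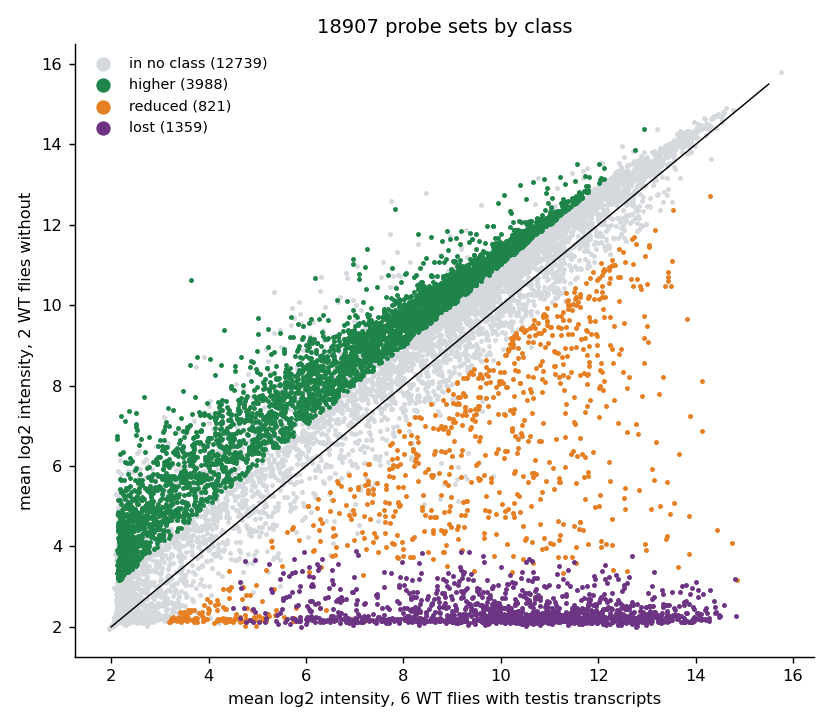
Each point is 1 of 18907 probe sets, with its mean log2 intensity in the 6 WT flies that have testis transcripts on the x axis and in the 2 that lack them on the y axis; colours mark the classes and the line marks equal levels. The 1359 lost probe sets form a band along the floor that reaches up to the brightest levels of the 6 flies, and the 3988 higher ones lie in a strip above the line.

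The lost transcripts were abundant ones. Their median level in the 6 flies was 10.46 on the log2 scale, 795 of the 1359 averaged 10 or more, and 134 averaged 13 or more, which is 32.1% of all 417 probe sets at that level. Together they gave 18.1% to 28.7% of the summed intensity of the 6 flies, and 0.044% and 0.0467% in CH-WT replicate 7 and in normoxic WT replicate 5. With the reduced ones added, the share was 25.7% to 40.1% in the 6 flies and 1.62% and 1.63% in the 2. CH-WT replicate 3 had the lowest shares of the 6. The lost probe sets with 1 gene symbol belonged to 1235 genes, of which 72.7% are known by a CG number alone, against 40.3% of the 7356 genes at 4 or more in all of the 6 flies.

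The levels of the 3 genes that chose the flies are given as a description. The log2 level of betaTub85D, the tubulin of meiotic spindles and sperm tails, was 12.60, 12.85 and 13.10 in CH-WT replicates 3, 5 and 6 and 13.13, 13.15 and 13.28 in normoxic WT replicates 2, 3 and 6, against 2.23 in CH-WT replicate 7 and 2.21 in normoxic WT replicate 5. Mst87F, a sperm tail protein, lay between 13.84 and 14.02 in the 6 flies and at 2.498 and 2.496 in the others. The values of dj, a protein of the mitochondria along the sperm tail, were 10.30 to 11.11 in the 6 flies and 2.38 and 2.13 in the 2. The low values follow from the choice of the flies.

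The largest differences were of very bright transcripts. CG33340 was at 14.73, 14.70 and 14.83 in CH-WT replicates 3, 5 and 6 and at 14.87, 14.87 and 14.92 in the normoxic ones, against 2.30 in CH-WT replicate 7 and 2.27 in normoxic WT replicate 5, a log2 difference of -12.54 (standard error 0.05). The other 14 of the 15 largest downward differences ranged over log2 values from -12.24 to -11.80. They were CG17376, CG31639, CG12861, CG31740, robl62A (a dynein light chain of the roadblock family), CG15219, Mst84Db (a sperm tail protein), CG34168, CG10252, janB (a sperm protein), CG31468, CG1394, CG32440 and CG17377. All 15 were at 2.60 or less in both flies and at 13.69 or more in each of the other 6.

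Genes of late spermatids and sperm were lost almost as a whole. Of 17 measured late spermatid genes, 15 were lost and 1 was reduced, with a median log2 difference of -11.29, beside 0.01 over all probe sets. Without Mst87F and dj, which belong to the rule, 13 of 15 were lost and 1 reduced. Mst84Dc, the reduced one, was at 2.21 in CH-WT replicate 7 and 4.12 in normoxic WT replicate 5, against 14.71 to 14.91. The S-Lap aminopeptidases, which are abundant in sperm, were lost in all 4 measured cases: S-Lap7 had a difference of -11.76 (standard error 0.07) and S-Lap5 one of -7.50 (standard error 0.34). Mst36Fb, the remaining member, was at the floor in every WT fly.

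The 7 measured genes of the sperm nucleus were all lost, with a median difference of -10.76. ProtA, one of the protamines that replace histones in the sperm head, was at 12.37, 12.59 and 12.83 in the other CH-WT flies, at 12.95, 12.92 and 12.94 in the other normoxic ones, and at 2.01 in both flies without testis transcripts. Mst77F, a linker-histone-like sperm protein, had the largest difference of the list, -11.30 (standard error 0.10), and Prtl99C, a protamine-like protein, the smallest, -8.73 (standard error 0.33). In each case the values of the 2 flies were at the floor.

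Genes transcribed after meiosis were also lower. Of 14 measured members of the cup and comet group, whose transcripts gather at the tail ends of spermatids, 11 were lost and 3 reduced, with a median difference of -7.61. t-cup had a difference of -10.08 (standard error 0.18) and sunz one of -9.98 (standard error 0.18). m-cup and f-cup kept clear levels: m-cup was at 8.07 and 8.37 against 12.16 to 12.87, and f-cup at 9.81 and 10.52 against 11.49 to 12.35. Both stayed below all of the other 6 flies.

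Of 19 measured genes of the sperm tail axoneme, 11 were lost and 5 reduced, with a median difference of -6.12. Without betaTub85D, which belongs to the rule, 10 of 18 were lost and the median was -6.06. Besides betaTub85D and robl62A, Cdlc2, a dynein light chain, was lost with a difference of -10.76 (standard error 0.12). Tektin-A, a filament protein of the axoneme, was at 2.11 in both flies and 8.96 to 10.16 in the others. Dhc36C, an axonemal dynein heavy chain, divided the 2 flies, with 2.54 in CH-WT replicate 7 and 8.19 in normoxic WT replicate 5, against 9.07 to 10.38.

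Y-linked genes are transcribed mainly in spermatocytes, and the 7 measured here were under a log2 level of 4 in both flies. Of them, 2 were lost and 2 reduced. Pp1-Y2, a protein phosphatase, was at 2.42 and 2.25 against 6.03 to 7.96, and ARY, an aldehyde reductase, at 2.13 in both against 6.14 to 7.50. ORY had a difference of -2.72 and kl-2, a dynein heavy chain, one of -1.503. The other 3, kl-3, kl-5 and Ppr-Y, were under 4 in the 6 flies as well.

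The regulators that open the spermatocyte programme were also lower, from lower levels in the other 6 flies. Of 11 measured tTAF and tMAC genes, 4 were lost and 3 reduced, and the median difference was -2.68. Their median level in the other 6 flies was 5.16, so the floor limits the size of the differences. Of the 11, 6 were at 4 or more in all of those flies, as the lost class requires. The genes comr, tomb and mia were under 4 in each of them. can, a testis-specific TFIID subunit, was at 7.16, 7.62 and 8.35 in the other CH-WT flies and 8.23, 8.57 and 8.81 in the other normoxic ones, against 2.15 in CH-WT replicate 7 and 2.13 in normoxic WT replicate 5. sa, another tTAF, and vis and aly of tMAC were lost too, with differences of -5.42, -5.61 and -2.68. topi of tMAC was reduced, at 3.99 and 5.51 against 6.79 to 8.57. achi, which is nearly identical to vis, was at 6.26 and 6.83 against 6.70 to 6.825, and vis at 2.02 and 2.37 against 6.69 to 8.245. Whether their 2 probe sets share probes was not tested.

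**Figure D2:**
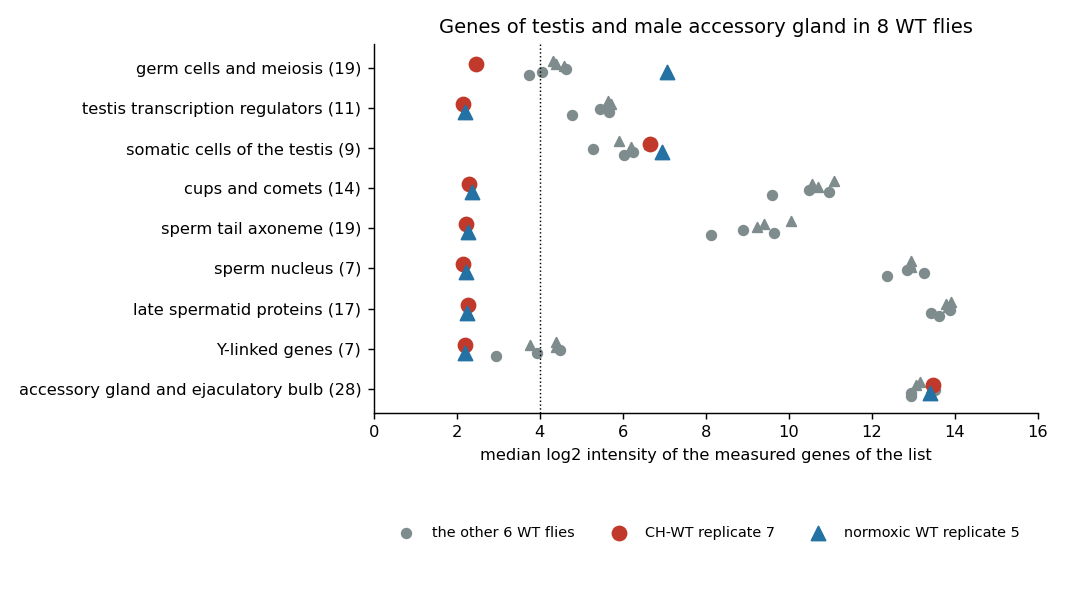
For each gene list (number of measured genes in brackets), the points give the median log2 intensity in each of 8 WT flies; circles are CH-WT and triangles normoxic WT flies, and the dotted line marks the log2 level of 4. The 2 coloured flies lie between 2.14 and 2.36 for cups and comets, axoneme, sperm nucleus and late spermatid genes, share the level of the others for seminal fluid, and stand at 2.46 and 7.07 for germ cells and meiosis.

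Testis copies of general cell machinery were mostly lost, and the widely expressed counterparts paired with them here were not lower. In 32 measured pairs of a testis gene and its widely expressed counterpart, 23 testis genes were lost, 6 reduced and 3 in neither class, with a median difference of -6.40 (22 lost of 31 and a median of -6.19 without betaTub85D). None of the 28 counterparts was lower and 3 were higher, beside 11.5% and 21.1% of all probe sets. A difference above 0 was seen in 26, and the median of the 28 was 0.44. Porin2, a testis form of the mitochondrial pore, was at 2.29 and 2.34 against 11.12 to 12.17, and porin itself at 14.26 and 14.17 against 13.75 to 13.94. COX4L and COX4, both forms of a cytochrome c oxidase subunit, had differences of -10.87 (standard error 0.13) and 0.27 (standard error 0.15). betaTub56D, the general beta tubulin, had one of 0.54 (standard error 0.24).

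Further pairs behaved alike. fzo, which fuses sperm mitochondria into the nebenkern, had a difference of -6.73 and its counterpart Marf one of 0.79. Hsp60B, Pglym87, knon, Cdlc2, COX5BL, COX7AL, COX6AL, SdhBL and ATPsynCF6L were lost, and their counterparts Hsp60A, Pglym78, ATPsynD, ctp, COX5B, COX7A, levy, SdhB and ATPsynCF6 had differences of 0.12 to 0.66. Among the proteasome pairs, Prosalpha3T, Prosalpha4T2, Prosalpha6T, Prosbeta2R1, Prosbeta4R1, Prosbeta5R1, Prosbeta5R2 and Rpn12R were lost, and Prosalpha4T1, Prosbeta2R2, Rpt3R and Rpt4R reduced. The counterparts Prosalpha4, Prosalpha6, Prosbeta2, Prosbeta4, Prosbeta5, Rpn12, Rpt3 and Rpt4 had differences of 0.21 to 0.92, and Prosalpha3 one of -0.94 (standard error 0.39). Prosbeta4R2 was at the floor in all 8 flies.

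The 3 of 28 counterparts that were higher, beside 21.1% of all probe sets, were all in tTAF pairs. Taf5, the TFIID subunit that can replaces in spermatocytes, was at 8.83 and 9.21 in the 2 flies against 5.59 to 6.66, a difference of 2.98 (standard error 0.30). Taf4, the counterpart of nht, had a difference of 1.33 and Taf6, that of mia, one of 1.13. Over probe sets at 4 or more in all 8 flies, the median difference was 1.54 at a level of 4 to 6 and 1.37 at 6 to 8. At 8 to 10 it was 1.01, near the 1.13 of Taf6 (7.975 to 8.71 in the other 6 flies). At a level of 10 to 12 it was 0.67. Taf8, that of sa, was at 3.27 and 3.68 against 3.61 to 4.70. The pair of TfIIA-S-2 and TfIIA-S had differences of -0.79 and 0.53, and eIF4E3 with eIF4E1 -6.62 and 0.62.

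**Figure D3:**
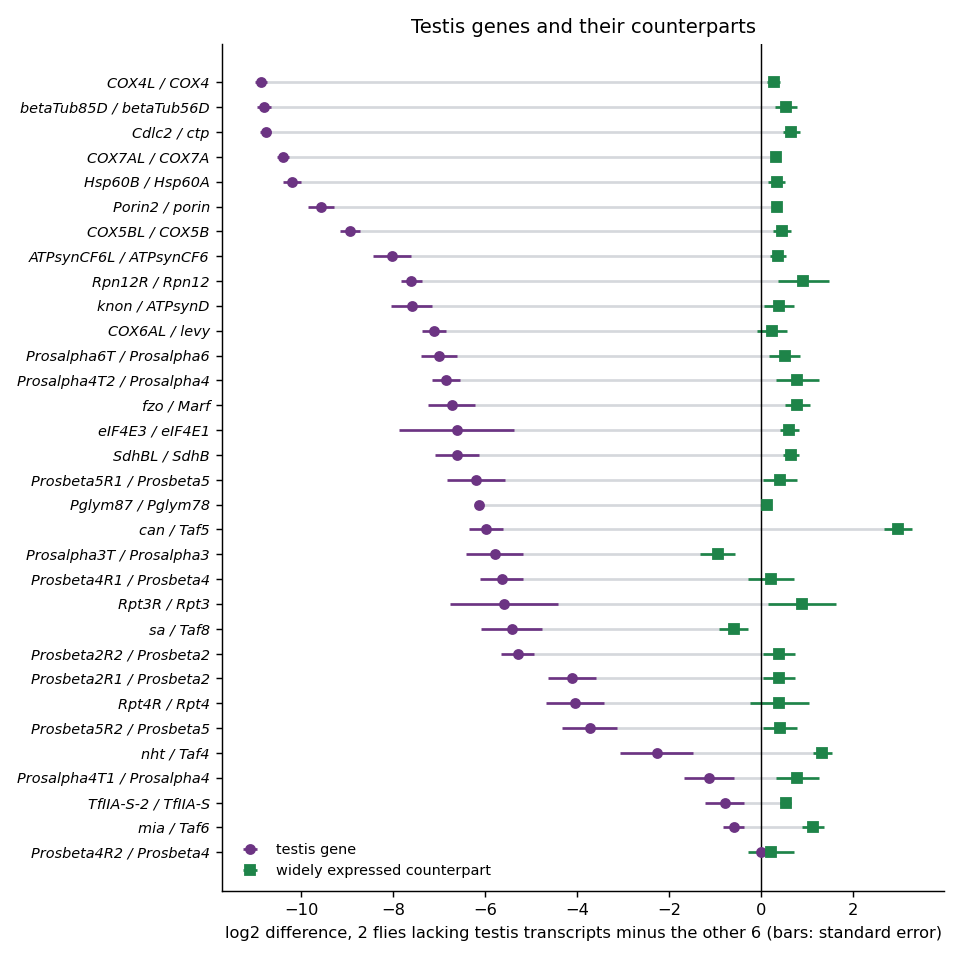
For each of 32 pairs, the circle gives the hypoxia-adjusted log2 difference between the 2 flies lacking testis transcripts and the other 6 for the testis gene and the square that for its widely expressed counterpart, with bars of 1 standard error. Testis genes extend to -10.87, and the counterparts lie between -0.94 and 2.98.

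Families read from the gene symbols, chosen after their values were seen, held lost copies too, along with some reduced genes that are not named as copies. Of 76 measured respiratory chain genes, 18 were lost, all of them copies named as like another subunit, such as UQCR-11L, ND-24L, ND-B14.5AL, Cyt-c1L and SdhAL. Of 31 genes of the vacuolar proton pump, 11 were lost, with differences as large as -10.66 for Vha36-2 and -10.32 for Vha68-3, and 4 were higher. Of 18 genes of the import machinery of mitochondria, 8 were lost, including tomboy20, tomboy40, ttm2 and ttm3, and 2 were reduced, Tom70 (-3.52) and Tim9a (-1.74). Of 40 proteasome genes, 9 were lost and 6 reduced, and the reduced ones included the general subunits Prosalpha5 (-1.22) and Prosalpha7 (-1.10). Of 40 translation initiation factor genes, 6 were lost and 6 reduced, among the latter eIF2A (-1.54), eIF4G2 (-2.42) and eIF6 (-1.09). Of 11 tubulin ligases of the TTLL family, which modify the tubulin of axonemes, 4 were lost and 3 reduced. Of 41 ribosomal protein genes with 1 symbol, RpL10Aa, RpS28a and RpS28-like were lost and RpS10a and RpS19b reduced. Over all probe sets, 7.19% were lost, 4.34% reduced and 21.1% higher. The ribosomal protein counts were near the shares lost and reduced over all probe sets.

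Of the 821 reduced probe sets, 551 kept a log2 level of 4 or more in both flies, with a median difference of -2.18; 94 of them had a difference of -4 or less and 244 one between -2 and -1. bol, an RNA-binding protein needed for meiosis, is a member with a high level in both flies. It was at 13.13, 13.40 and 13.52 in the other CH-WT flies, 13.52, 13.43 and 13.63 in the other normoxic ones, 10.54 in CH-WT replicate 7 and 10.65 in normoxic WT replicate 5. Among the largest such differences, chosen after their values were seen, were fest (-8.46), CG15461 (-8.15), Rcd7 (-7.81) and Hsc70-2 (-7.60), a chaperone of the Hsp70 family. These kept levels of 4.28 to 5.79 in the 2 flies, against 11.75 or more in the others.

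The 2 flies differed from each other in transcripts of germ cells. Of 19 measured genes of germ cells and meiosis, 2 were lost, 1 reduced and 4 higher, with a median difference of 0.09. Over all probe sets the shares were 7.19%, 4.34% and 21.1%, so the count of higher genes was near that of all probe sets. The list's median level was 2.46 in CH-WT replicate 7 and 7.07 in normoxic WT replicate 5, on either side of the 3.74 to 4.62 of the other 6. The reduced gene is bol, and the lost ones are fzo and Rbp4, an RNA-binding protein of spermatocytes, at 3.21 and 3.26 against 7.07 to 8.32.

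Normoxic WT replicate 5 stood above all other WT flies in several genes of the germ cell list. The kind or stage of germ cell behind these values was not tested. nanos, a translational repressor that keeps germline stem cells, was at 7.77 in this fly and between 2.13 and 2.21 in the other 7. Phf7, a chromatin reader of male germ cells, was at 10.48 against 3.35 to 4.62, and aub, a piRNA-binding Argonaute, at 9.86 against 2.87 to 5.12. The same fly was also the highest in AGO3 (6.07), zpg (5.16), a germline gap junction protein, and ovo (8.13), a germline transcription factor, in which CH-WT replicate 7 (5.57) also exceeded the other 6 (2.56 to 3.34). vas had no measurable level in any fly (2.12 to 2.31), and bam, the switch from spermatogonium to spermatocyte, was at 2.12 or 2.13 in every fly.

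The partners of bam set the 2 flies further apart. bgcn was at 8.96 in normoxic WT replicate 5, among the 7.93 to 9.57 of the other 6, and at 2.37 in CH-WT replicate 7. tut was at 8.17 and 2.10, against 7.94 to 10.12. ord, a protein of meiotic chromosome cohesion, was at 7.07 and 3.08, against 4.34 to 7.25. CH-WT replicate 7 was below all other flies in each of these genes, and normoxic WT replicate 5 was within their range.

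**Figure D4:**
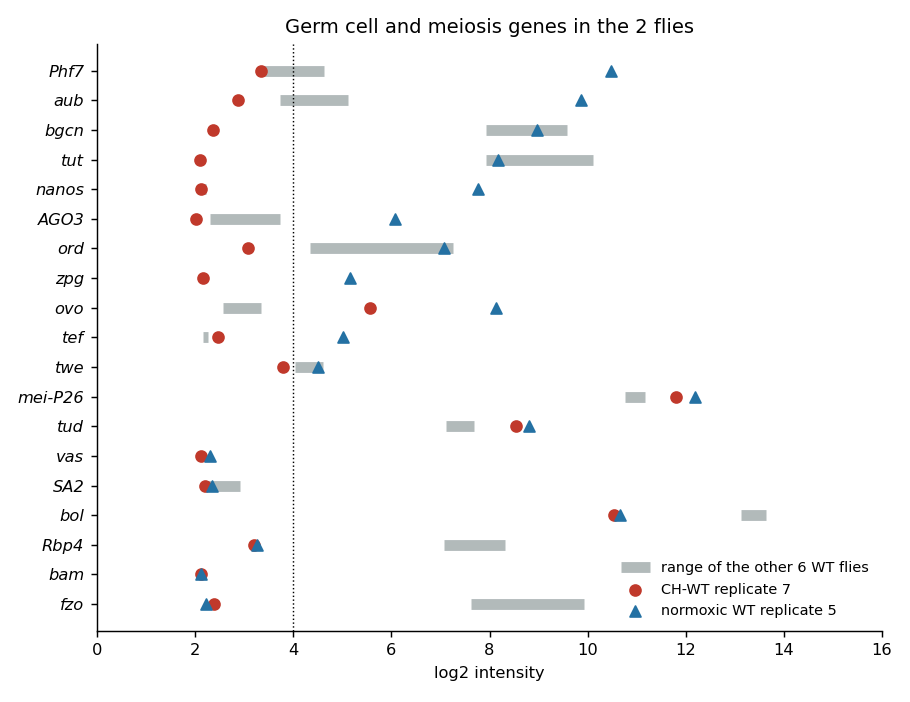
For 19 measured germ cell and meiosis genes, ordered by the gap between the 2 flies, grey bars span the log2 intensity of the 6 WT flies with testis transcripts; the circle is CH-WT replicate 7, the triangle normoxic WT replicate 5, and the dotted line the level of 4. In the rows of Phf7, aub, bgcn, tut and nanos, normoxic WT replicate 5 lies at 7.77 or more and CH-WT replicate 7 at 3.35 or less, while in the row of fzo both are at the floor.

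Over all probe sets, 151 were under a log2 level of 4 in CH-WT replicate 7 alone, and 43 in normoxic WT replicate 5 alone. The former belonged to 141 genes, with the largest gaps, chosen after their values were seen, in RpS19b, a ribosomal protein of the germline, at 2.31 against 9.34 in normoxic WT replicate 5 and 9.83 to 10.84 in the other 6. Pen, an importin, was at 3.02 against 9.58 and 13.46 to 13.77. Genes of dividing cells were among them: fzy, an activator of the anaphase-promoting complex, was at 2.39 against 7.74 and 7.24 to 9.27, and pim, the securin, at 2.32 against 7.51 and 8.00 to 10.23. The chromosomal passenger genes borr and Incenp and the synaptonemal complex genes cona and corolla were also under 4 in CH-WT replicate 7 alone.

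A gap of 3 or more log2 units to all other 7 flies was counted for each fly. Normoxic WT replicate 5 was above in 149 probe sets and below in 13, CH-WT replicate 7 above in 80 and below in 66, and none of the other 6 flies exceeded 7 above or 21 below. The highest of normoxic WT replicate 5, again chosen after their values were seen, held germline genes such as orb, a translational regulator, at 10.14 against 2.44 to 2.64, gnu at 8.29 against 2.17, and tej (7.49) and shu (8.07) of the piRNA pathway. They also held CG5770 at 10.10, CG15533 at 9.43 and the digestive trypsin iotaTry at 7.66. Both germ cell and gut genes were thus among this fly's own high values.

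None of the genes of the somatic cells of the testis counted as lower. Of 9 measured, 3 were higher, beside 21.1% of all probe sets, and 7 had a difference above 0, with a median of 0.67. Over the 5 measurable in all 8 flies, the median relative to probe sets of their own level was -0.34. Of these 5, 1 was above that level's median by 1 or more and 2 were below it by 1 or more. Over all 7093 probe sets measurable in all 8 flies, 3.98% were above and 17.57% below. zfh1, a transcription factor of cyst stem cells that is also made in muscle, fat and blood cells, was at 9.77 in CH-WT replicate 7 and 9.55 in normoxic WT replicate 5, against 5.27 to 7.04. esg, made in the hub of the testis and in gut stem cells, was at 4.25 and 6.93 against 2.60 to 4.01, and hh at 3.36 and 6.34 against 2.80 to 3.66. tj and upd1, markers of the cyst and hub cells, were at the floor in all 8 flies.

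Transcripts measurable in every WT fly stood on average higher in the 2 flies. Of 7093 probe sets at a log2 level of 4 or more in all 8 flies, 5811 (81.9%) had a difference above 0 and the median was 0.89, a set that leaves out by its definition what went to the floor. Over the 7999 probe sets with a mean of 6 or more over the 8 flies, the lost ones included, the median was 0.68. The difference depended on the level: the median of the 7093 was 1.54 at a level of 4 to 6, 1.01 at 8 to 10 and 0.33 at 12 and above. Each array was normalized and held a fixed amount of amplified RNA, and the lower transcripts made up 25.7% to 40.1% of the intensity of the other 6 flies; the part of this in the shift was not tested. Centred on muscle genes the median of the 7093 was 0.28, and on ribosomal protein genes 0.50. Of the 7093, 38.6% counted as higher. Lists of somatic genes are therefore also given relative to the median of probe sets of their own level, over their members measurable in all 8 flies.

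Most somatic lists stayed close to that shift. The medians were 0.39 for 24 ribosomal protein genes, 0.37 for 24 genes of oxidative phosphorylation, 0.30 for 28 seminal fluid genes, 0.61 for 24 muscle genes and 0.72 for 11 eye genes. Beyond the shift at their level, these were 0.02, -0.01, -0.12, 0.23 and 0.17. trp, a light-activated channel of photoreceptors, is one example, at 12.96 and 12.75 against 11.89 to 12.52. Centred on muscle genes, the medians of the ribosomal, oxidative phosphorylation and seminal fluid lists were -0.23, -0.25 and -0.32, so their direction depended on the scaling.

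Neuronal genes were higher in 12 of 19, with a median of 1.14. The share was 21.1% over all probe sets and 38.6% over those measurable in all 8 flies. Beyond the shift the median was 0.49 over 15 of them, of which 1 exceeded it by 1 or more. Among all probe sets measurable in all 8 flies, 3.98% did so. ple, tyrosine hydroxylase, was at 8.74 and 8.89 against 5.72 to 6.74, and Rdl, a GABA receptor, at 9.28 and 9.63 against 6.55 to 8.10. brp, the active zone protein of synapses, went the other way: its probe set with 1 symbol was at 2.66 and 3.02 against 7.86 to 9.48 and counted as lost. Clock genes were higher in 6 of 8 (median 1.40), genes of male dosage compensation in 3 of 5 (median 1.63) and hypoxia response genes in 4 of 7 (median 1.27), with 0.37, 0.47 and 0.48 beyond the shift over 7, 4 and 6 genes, none of which exceeded it by 1. Of the 7 clock genes, 1 was below the shift by 1 or more, beside 17.57% of all probe sets measurable in all 8 flies. cwo and cyc, clock genes, had differences of 2.03 and 1.65, and mle, the helicase of the dosage compensation complex, had 1.86. tgo, a partner of the hypoxia-inducible factor, had 2.01.

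Detoxification genes were higher in 20 of 35, with a median of 1.41. This stands beside 21.1% of all probe sets and 38.6% of those measurable in all 8 flies. GstD10, a glutathione transferase, had a difference of 3.50 (standard error 0.72), GstD7 3.26, Cyp6a2, a cytochrome P450, 2.81 and GstE5 2.74. Beyond the shift at their level the 26 members measurable in all flies had a median of 0.41. Of these, 4 were above the shift by 1 or more and 1 was below it by 1 or more. Over the 7093 probe sets measurable in all 8 flies, the shares were 3.98% and 17.57%. Of 6 Malpighian tubule genes, 1 was higher and the median was 0.63 (-0.09 beyond the shift), with ZnT35C at -0.85.

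Digestive enzymes had the largest median difference of the somatic lists described here, and it came mainly from normoxic WT replicate 5. All 34 measured members had a difference above 0 and 10 were higher than in each of the other flies, a share not far from the 21.1% of all probe sets, with a median of 2.67. Over the 15 members measurable in all flies, the median beyond the shift was 1.16, and 8 exceeded it by 1 or more, against 3.98% of the 7093. Against the other flies of its own condition, the list's median was 3.69 in normoxic WT replicate 5 and 1.34 in CH-WT replicate 7. However, the levels of the other 6 flies spread from 4.87 in normoxic WT replicate 3 to 9.98 in CH-WT replicate 6, a range that holds CH-WT replicate 7 (9.73) but not normoxic WT replicate 5 (11.60).

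Single enzymes show that spread. LysX, a gut lysozyme, was at 2.44, 2.24 and 3.78 in CH-WT replicates 3, 5 and 6 and 8.02 in replicate 7, and at 7.51, 2.10 and 3.62 in normoxic WT replicates 2, 3 and 6 and 8.99 in replicate 5. Jon99Fi, a serine protease, ranged among flies with testis transcripts from 2.10 in CH-WT replicate 5 to 13.46 in normoxic WT replicate 2, and was at 10.89 and 14.28 in the 2 flies (difference 4.83, standard error 4.01). Jon25Biii and Jon44E had differences of 4.39 and 4.33 with standard errors of 3.30 and 3.76. Flies with and without testis transcripts overlapped in these 3 protease genes.

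The 15 largest upward differences contained further genes of this kind. CG14499 was at 2.32, 2.36 and 5.27 in the other CH-WT flies, 6.86, 2.33 and 2.75 in the other normoxic ones, 9.93 in CH-WT replicate 7 and 11.32 in normoxic WT replicate 5, a difference of 6.98 (standard error 1.505). Fa2h, a fatty acid hydroxylase, had a difference of 5.07, the mucin Muc68E 4.94, LysX 4.89 and Cyp4d14 4.80. The others were AttD, CG32379, HP1D3csd, CG15255, CG15199, CG18404, CG4650, CG4653, Npc2f and Nazo, at 4.47 to 5.05. Some had high levels in several flies with testis transcripts too: CG18404 was at 10.14, 11.70 and 11.25 in CH-WT replicates 3 and 6 and normoxic WT replicate 2, and Npc2f at 10.39 and 8.77 in the latter 2.

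Immune and blood cell genes set CH-WT replicate 7 apart. Of 11 blood cell genes, 7 were higher, with a median of 1.78 (0.74 beyond the shift over 4 genes). The share higher was 21.1% over all probe sets and 38.6% over those measurable in all 8 flies. Among the 7, He and NimC1 were at the floor in normoxic WT replicate 5. The list's median against the flies of the same condition was 2.23 in CH-WT replicate 7 and 0.63 in normoxic WT replicate 5. NimC1, a phagocytosis receptor of plasmatocytes, was at 8.13 in CH-WT replicate 7 and at the floor (2.18 or 2.19) in the other 7 flies, and it counted as higher in normoxic WT replicate 5 by a margin within the floor. Hml, a clotting protein of plasmatocytes, was at 6.02 in CH-WT replicate 7, 3.57 in normoxic WT replicate 5 and 2.14 to 3.82 in the other 6. PPO2, a prophenoloxidase of crystal cells, and lz, their transcription factor, were higher in both flies, with differences of 3.03 (standard error 0.38) and 2.79 (standard error 0.42).

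Further genes at a high level in CH-WT replicate 7 alone, chosen after their values were seen, were Vago, an antiviral factor, at 9.38 against 2.20 to 2.63, the scavenger receptor Sr-CI at 8.67 against 2.60 to 3.29, and lectin-24Db at 8.74 against 2.13 to 2.96. Of 12 antimicrobial peptide genes, 1 was higher in both flies, beside 21.1% of all probe sets. This gene, AttD, an attacin, was at 8.18 and 6.30 against 2.18 to 2.24. Over 2 members measurable in all flies, the median beyond the shift was -0.27. The list's median level was 6.95 in CH-WT replicate 7 and 2.22 to 2.41 in the other CH-WT flies, but among normoxic flies replicate 6 had 6.00 beside the 6.38 of replicate 5. DptB, a diptericin, was highest in normoxic WT replicate 6, a fly with testis transcripts, at 13.20.

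Fat body genes did not follow the testis transcripts. Lsp2, a storage protein, was at 13.44, 12.69, 6.85 and 13.70 in CH-WT replicates 3, 5, 6 and 7 and at 7.98, 6.84, 4.44 and 6.85 in normoxic WT replicates 2, 3, 5 and 6. Fbp1 and Fbp2 were at 8.52 or more in CH-WT replicates 3, 5 and 7 and at 2.25 or less in the other 5 flies. Over the list, 2 of 15 genes were higher, beside 21.1% of all probe sets. The median difference was 0.96 (0.20 beyond the shift over 11 genes), with 1.99 in CH-WT replicate 7 and 0.15 in normoxic WT replicate 5. Heat shock genes, 4 measured with 1 symbol, had a median of 0.26 (-0.29 beyond the shift) and none in any class.

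**Figure D5:**
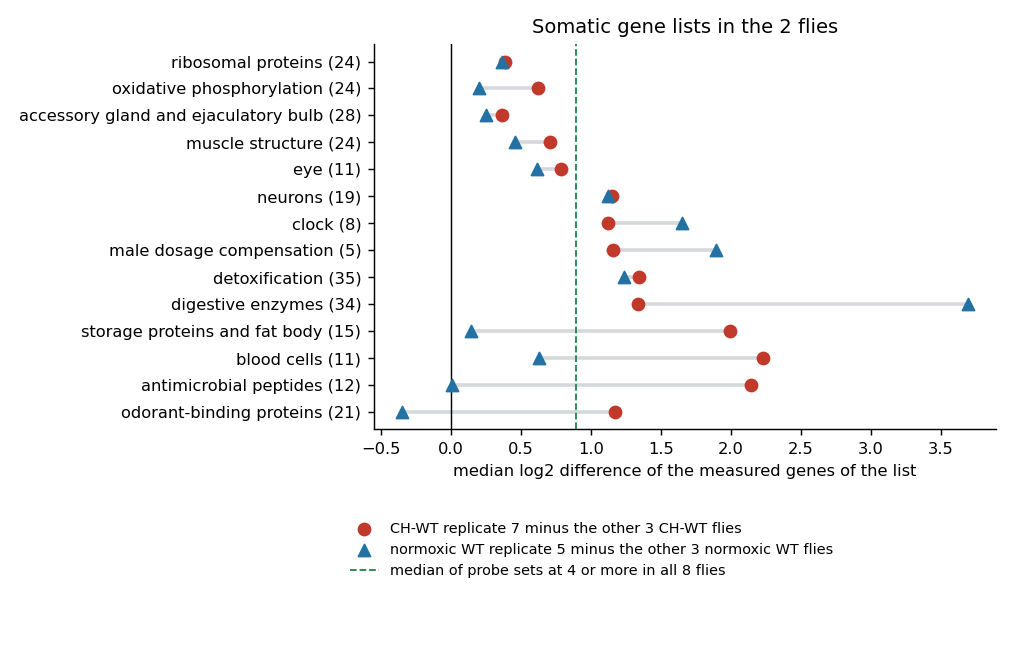
For each somatic gene list (number of measured genes in brackets), the circle gives the median log2 difference of CH-WT replicate 7 from the other 3 CH-WT flies and the triangle that of normoxic WT replicate 5 from the other 3 normoxic WT flies; the dashed line is the median of 0.89 over probe sets measurable in all 8 flies. Digestive enzymes stand out in normoxic WT replicate 5 (3.69), and fat body, blood cell and antimicrobial genes in CH-WT replicate 7 (1.99, 2.23 and 2.14).

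Besides brp, 1 gene of the somatic lists was lost and 1 reduced, both odorant-binding proteins. Obp99a, an odorant-binding protein, was at 2.33 and 2.34 in the 2 flies and 9.44 to 10.93 in the other 6, a difference of -7.98 (standard error 0.39). Obp44a was reduced, at 13.89 and 11.56 against 14.24 to 14.39. None of the other 19 of 21 odorant-binding protein genes was in any class. The list's median beyond the shift was -0.48 over 15 genes. The list was higher by a median of 1.18 in CH-WT replicate 7 and lower, at -0.35, in normoxic WT replicate 5. In the list of eggs and yolk, Cp15, an eggshell protein by name, was reduced from a low level, at 2.19 and 2.26 against 2.75 to 5.25.

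Lost genes were spread over the genome except for chromosome 4. Of genes at a log2 level of 4 or more in all of the 6 flies, 20.2% of 1408 on arm 2L were lost, 15.8% of 1565 on 2R, 15.9% of 1404 on 3L, 16.4% of 1829 on 3R and 16.0% of 1072 on the X. On chromosome 4, none of 49 was lost. Genes of the X and of chromosome 4 were the more often higher: of those with a mean of 6 or more over the 8 flies, 38.04% of 978 on the X and 55.3% of 47 on chromosome 4 were higher, against 28.4% of 5766 on the large autosome arms. Their median differences were 0.85 and 1.08, against 0.63. These shares were not tested.

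Lost genes often lay side by side. Along the chromosomes, ordered by the positions of the RefSeq annotation (Release 6) and counting genes at 4 or more in all of the 6 flies, 693 of 1229 lost genes (56.4%) had a lost neighbour, against 23.0% of 6102 other genes. There were 55 runs of at least 4 lost genes in a row. The longest held 10 genes, 1 on arm 2L from CG1421 to CG10834, with ttm3 in it, and 1 on arm 2R from CG42383 to CG13581, with Prosalpha4T2. Neighbouring copies of 1 family were among the runs, such as ACXA, ACXB and ACXC, adenylyl cyclases, and Tengl1, Tengl2 and Tengl3, so that runs are not made of independent genes.

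The dmDys flies of the series carried the same transcripts. Of the 1359 lost probe sets, 1330 were at a log2 level of 4 or more in all 8 dmDys flies, and the median of betaTub85D, Mst87F and dj was 14.10 to 14.42 there. The lowest log2 value was 2.06 on the dmDys arrays and 1.95 on the WT arrays, so the 2 strains were treated as normalized apart, and their levels are given side by side and not compared.

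With the absence of testis transcripts as a covariate, which is balanced over both conditions, 4 probe sets differed between CH-WT and normoxic WT flies by at least 1 on the log2 scale with a limma adjusted p below 0.05 (0.0212% of all), and 1013 at an unadjusted p under 0.05. All 4 were higher in CH-WT flies and belong to heat shock genes. Hsp68, an inducible Hsp70-type chaperone, was at 11.85, 11.71, 11.67 and 12.41 in CH-WT replicates 3, 5, 6 and 7 and at 9.70, 9.48, 9.80 and 9.37 in normoxic WT replicates 2, 3, 5 and 6, a difference of 2.32 (standard error 0.11, limma adjusted p = 0.0204). Hsp27, a small heat shock protein, rose by 1.68 (standard error 0.08, limma adjusted p = 0.0204). The other 2 probe sets match several Hsp70 genes at once and rose by 3.76 (limma adjusted p = 0.0211) and 3.73 (limma adjusted p = 0.0304). No probe set was called without the covariate, and none among the 6 flies with testis transcripts alone, and leaving out any 1 fly left 0 to 3 calls. With the 3' minus 5' value added to the fit there were 0 calls (900 at an unadjusted p under 0.05), and centred on muscle genes 81. In each of these 4 probe sets the values of CH-WT and normoxic WT flies did not overlap. The same contrast chose them, so this is a description and adds no support.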

How the data were processed

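Each of the 16 arrays (Affymetrix Drosophila Genome 2.0) held RNA of 1 whole fly, extracted with RNeasy and amplified from 100 ng with the NuGEN Ovation kit. The deposited values are linear intensities that the authors normalized with GCRMA and read in GeneSpring; no count depth exists, and 4 flies per group limit precision. Their log2 was used with no further scaling. All 18952 probe sets but 45 spike-ins were kept (18907), of which 13647 had 1 gene symbol (11982 genes), 402 several and 4858 none; a gene was read from its brightest probe set over the 8 WT flies. No column of another series was present (0). WT flies were fitted with limma 3.58.1 in R 4.3.3, with hypoxia and absence of testis transcripts as terms; p-values, Benjamini-Hochberg adjusted, measure only the spread between these flies and are given for hypoxia alone. The study's own Significance Analysis of Microarrays was not run. The fits were tested on simulated data.

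The members and gene lists were chosen with earlier results of these data known. Genes named were the 3 markers, the 15 largest differences each way without overlap, the 2 to 4 largest of each list, and all gene pairs; further genes were chosen after their values were seen. Gene order came from the start positions of RefSeq (Release 6), with no distances between genes used.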

Additional observations from a re-analysis of the deposited data

Results flagged for a closer look

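In 16 of 56 groups of 4 WT flies screened, 1 fly stood apart from the other 3 by a gap beyond Dixon's critical value. The limit marks about 1 group in 20 by chance, but the count is not read against that: all 16 values belonged to the 2 flies chosen for lacking testis transcripts, 2 are the rule's own values, and the low ones are all of testis lists. Each is a median log2 level.

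In CH-WT replicate 7, the medians were 2.38 for betaTub85D, Mst87F and dj (12.60 to 13.10 in the other CH-WT flies), 2.14 for the sperm nucleus (12.37 to 13.26), 2.27 for late spermatid genes (13.42 to 13.87) and 2.30 for cups and comets (9.59 to 10.96). Above its group it had 6.95 for antimicrobial peptides (2.22 to 2.41), 6.07 for blood cell genes (3.22 to 3.65) and 9.84 for detoxification genes (8.00 to 8.08).

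In normoxic WT replicate 5, the medians were 2.21 for the 3 markers (13.13 to 13.28 in the other normoxic flies), 2.19 for testis transcription regulators (5.63 to 5.72), 2.26 for the axoneme (9.24 to 10.05), 2.21 for the sperm nucleus (12.92 to 12.95), 2.25 for late spermatid genes (13.79 to 13.91) and 2.36 for cups and comets (10.54 to 11.07). Above its group it had 7.07 for germ cells and meiosis (4.31 to 4.57), 10.05 for male dosage compensation (8.11 to 8.18) and 8.88 for clock genes (7.79 to 7.95).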

How the results depend on the processing

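The count of lost probe sets (1359) lay between 1200 (no cross-hybridizing probe sets) and 1500 over the settings tried. Centred on muscle genes, 1255 probe sets were reduced and 1171 higher, against 821 and 3988; centred on ribosomal protein genes, 2335 were higher; with a log2 difference of at least 2, 501 were reduced and 1124 higher. Leaving out 1 fly at a time gave 2151 to 2308 lower, 1359 to 1500 lost, 743 to 910 reduced and 3946 to 4591 higher. For hypoxia (4 calls), 0 were made without the testis covariate (232 at an unadjusted p under 0.05), 0 in the 6 flies with testis transcripts (897), 0 with the mean 3' minus 5' value added to the fit (900), 81 centred on muscle genes (77 higher, 4 lower), 7 with a trend, 12 among brighter probe sets, 2 without cross-hybridizing ones, and 0 to 3 leaving out 1 fly. With replicate number as a block, 0 were called (1826 unadjusted); deviations of same-numbered flies correlated at 0.14, -0.01 and -0.42, so the numbers were not taken as pairs. List medians changed sign centred on muscle genes for germ cells (-0.53), seminal fluid (-0.32), muscle itself (-0.006, fixed near 0 by the centring), heat shock (-0.35), oxidative phosphorylation (-0.25), ribosomal proteins (-0.23) and odorant-binding proteins (-0.23), and centred on ribosomal protein genes for germ cells (-0.31), seminal fluid (-0.10), heat shock (-0.13), oxidative phosphorylation (-0.023) and odorant-binding proteins (-0.01). The germ cell median was -0.43 without normoxic WT replicate 5 and 0.765 without CH-WT replicate 7, and the odorant-binding one 1.175 and -0.35. Leaving out the genes of the rule, an alternative chosen after seeing the data, gave -11.29 for late spermatid and -6.06 for axoneme genes. The causes of the other shifts were not tested.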
